A study of Mus musculus with 12 samples.

Results

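Myosin light chain genes and the genes of their kinases were followed through 12 RNA sequencing libraries of Sol8, a mouse skeletal myoblast line that was used unedited (WT) or after CRISPR editing of Gne (Gne KO). The members are the 10 genes of the deposited table whose names are Myl1, Myl2, Myl3, Myl4, Myl6, Myl6b, Myl9, Mylpf, Mylk and Mylk2, out of 54838 genes listed. The rule is a list of names, drawn up with earlier results of these data known. Of the 10, 8 reached the minimum of 10 counts summed over the libraries that 20415 genes reached and were tested, and Myl2 and Myl3 did not. The 4 groups have 3 libraries each, which are proliferative WT cells in fetal calf serum (WT_P), differentiated WT cells in a low level of horse serum (WT_D), and Gne KO cells in the same media (KO_P and KO_D). All groups share the Sol8 line, and both Gne KO groups are a single clone with a short deletion in exon 3 of Gne, so the effect of the deletion and of the clone cannot be told apart. By their titles the libraries of a group are biological replicates, while the methods describe independent cultures and also triplicates of each sample without tying either to the libraries, so p-values measure only the spread between these libraries.

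Each myosin motor carries on its lever arm an essential and a regulatory light chain for every heavy chain. In fast skeletal muscle these are the essential chain encoded by Myl1 and the regulatory chain encoded by Mylpf, with the essential chain of Myl4 in embryonic muscle and atrium. Slow muscle and ventricle use Myl3 and Myl2, while nonmuscle and smooth muscle myosin II uses the essential chains of Myl6 and Myl6b and the regulatory chain of Myl9. Phosphorylation of the regulatory chain by a calmodulin-dependent kinase, encoded by Mylk in smooth muscle and nonmuscle cells and by Mylk2 in skeletal muscle, switches on nonmuscle myosin and tunes the force of the sarcomere. Myoblasts that leave the cell cycle and fuse are known to exchange the nonmuscle set for the sarcomeric set.

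Promoters are shown for the 3 genes that stand for the patterns described below, the fast essential chain Myl1, the fast regulatory chain Mylpf and the nonmuscle and smooth muscle regulatory chain Myl9. The sequences are from RefSeq (GRCm38.p6), cover 250 bases before to 50 bases after the annotated start, and read 5′ to 3′ on the strand of the gene. Capitals mark the E-box CANNTG, the letters bound by myogenic factors such as MyoD and myogenin, and in Myl9 also the CArG box, the element bound by serum response factor. They lie at chr1:66945007-66945306 (minus strand, Myl1), chr7:127211358-127211657 (plus strand, Mylpf) and chr2:156775214-156775513 (plus strand, Myl9).
Myl1: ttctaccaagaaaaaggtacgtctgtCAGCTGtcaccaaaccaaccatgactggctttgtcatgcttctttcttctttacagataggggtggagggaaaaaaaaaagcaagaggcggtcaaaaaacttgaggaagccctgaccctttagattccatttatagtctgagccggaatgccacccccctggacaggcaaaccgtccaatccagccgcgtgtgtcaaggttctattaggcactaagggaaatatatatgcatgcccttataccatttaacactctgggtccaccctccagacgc
Mylpf: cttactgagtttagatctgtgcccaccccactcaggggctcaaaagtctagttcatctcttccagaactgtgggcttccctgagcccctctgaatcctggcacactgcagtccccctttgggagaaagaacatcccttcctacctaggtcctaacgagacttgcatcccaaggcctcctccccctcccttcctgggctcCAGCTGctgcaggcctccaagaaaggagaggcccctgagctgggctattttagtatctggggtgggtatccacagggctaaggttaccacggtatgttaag
Myl9: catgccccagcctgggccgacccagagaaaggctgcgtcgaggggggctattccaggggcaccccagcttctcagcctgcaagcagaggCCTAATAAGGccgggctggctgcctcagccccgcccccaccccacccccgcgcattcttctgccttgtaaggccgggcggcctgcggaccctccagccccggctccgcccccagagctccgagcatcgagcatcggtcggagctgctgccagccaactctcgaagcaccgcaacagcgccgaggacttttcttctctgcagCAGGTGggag

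In the GRCm38 coordinates of the deposited table Myl1 spans chr1:66924295-66945404 (minus strand), Mylpf chr7:127208890-127214298 (plus strand) and Myl9 chr2:156775420-156781658 (plus strand). Myl6 (chr10:128490860-128494145) and Myl6b (chr10:128494157-128498685) lie next to each other on the minus strand with 11 bases between them, and Mylk2 shares chromosome 2 with Myl9. Promoter entries matched 9 of the 10 members, with 2 entries each for Myl2 and Myl6 and none used for Mylk2. Both Myl2 entries (chr5:122092474-122092773 and chr5:122092939-122093238) lie before the Myl2 gene of the deposited coordinates, which starts at 122100951. The stretch at that start was therefore not searched. Both strands were searched, and matches are a description of letters. The E-box CAGCTG stood 224 bases before the start of Myl1 and 51 bases before that of Mylpf. E-boxes were also found in Myl2, Myl3, Myl6b, 1 of the 2 entries of Myl6, and Myl9 (CAGGTG, 40 bases after the start). Myl4 and Mylk had none, and 72.3% of all 32851 promoters searched hold an E-box. The CArG box stood 161 bases before the start of Myl9, and 1 each was found in Myl3 and in 1 of the 2 entries of Myl6, against 1.63% of all promoters. The letters TATAAA were found in Myl1 and in 1 entry of Myl2 (13.6% of all promoters), and the MCAT letters CATTCC in Myl1, Myl3 and Mylk (14.7%). No MEF2 site was found in the 11 entries (3.19% of all promoters), and the window of Myl4 held none of the 5 motifs. No match in these windows overlapped another.

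Libraries held 22612038 to 29389759 counts in genes (median 26740404). Values below are normalized counts, which are raw counts scaled by TMM factors to the mean effective library size. The labelled muscle identity was checked on 8 skeletal muscle markers, all of which had reads in every group. Their summed level was 31617 to 60037 in WT_P, 48234 to 55726 in WT_D, 12354 to 21211 in KO_P and 10249 to 11444 in KO_D, and 7 of the 8 were lower in Gne KO than in WT cells in the proliferative state (27.2% of all tested genes) and 8 of 8 in the differentiated state (12.5%). Library 1 of WT_P (WT_P1) stood apart: its skeletal marker sum was the 60037 at the upper end, and Myog, encoding the differentiation factor myogenin, had 8899 there against 2647 and 2459 in libraries 2 and 3. Tests, counts and shares that rest on WT_P were therefore also computed without it, and a call stayed the same where no other value is given. All percentages of all tested genes belong to the fit of all libraries. Those of the fit without WT_P1 are not given, so counts without WT_P1 have no such share beside them. The 3 KO_P libraries lay furthest apart among themselves, with an SD of log2 values of 0.302 to 0.400 from the other replicates, against 0.0893 to 0.181 in libraries other than these and WT_P1 (0.291). The number of Gne reads does not check the genotype, since the deletion spares most of the transcript.

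The sarcomeric light chains were far lower in Gne KO than in WT cells in both states, and no Gne KO library reached the lowest WT library. Myl1 had 3269, 966 and 1028 normalized counts in the 3 WT_P libraries and 37.5, 64.8 and 28.0 in KO_P. In the differentiated state it had 5029, 5052 and 4425 in WT_D and 128.7, 72.4 and 105.9 in KO_D. The fitted difference was −5.19 ± 0.65 (log2, SE, limma voom, adjusted p = 7.27e-06) in proliferative cells, a 36.6-fold lower level, and −5.57 ± 0.47 (adjusted p = 5.41e-07), 47.5-fold lower, in differentiated cells. Without WT_P1 the first of these was −4.61 (adjusted p = 7.89e-09).

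Mylpf, the regulatory partner of Myl1, followed the same order of groups. It had 5678, 1828 and 1920 normalized counts in WT_P, 8107, 8058 and 6568 in WT_D, 102.7, 239.4 and 162.5 in KO_P, and 291.3, 161.1 and 222.9 in KO_D. The WT and the Gne KO libraries did not overlap in either state, and WT_P1 was again the high library of its group. The level was 17.4-fold lower in proliferative Gne KO cells (log2 −4.12 ± 0.45, limma voom adjusted p = 1.78e-06) and 34.0-fold lower in differentiated ones (−5.09 ± 0.40, adjusted p = 2.43e-07). Without WT_P1 the proliferative difference was −3.58 (adjusted p = 3.70e-08).

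Myl4, the embryonic and atrial essential chain, had 1459, 569.5 and 629.8 normalized counts in WT_P and 2341, 2359 and 1877 in WT_D. In Gne KO cells it had 55.3, 79.8 and 89.3 in KO_P and 96.5, 59.4 and 70.6 in KO_D. Its Gne KO levels in the 2 states overlapped, while the WT libraries lay above all of them. The difference from WT was −3.48 ± 0.41 (log2, limma voom adjusted p = 3.67e-06) in the proliferative state and −4.85 ± 0.39 (adjusted p = 2.87e-07) in the differentiated state, or 11.2-fold and 28.9-fold lower, and −3.03 in the proliferative state without WT_P1. These are bulk cultures, in which fewer cells of a type and less RNA per cell cannot be told apart.

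**Figure D1:**
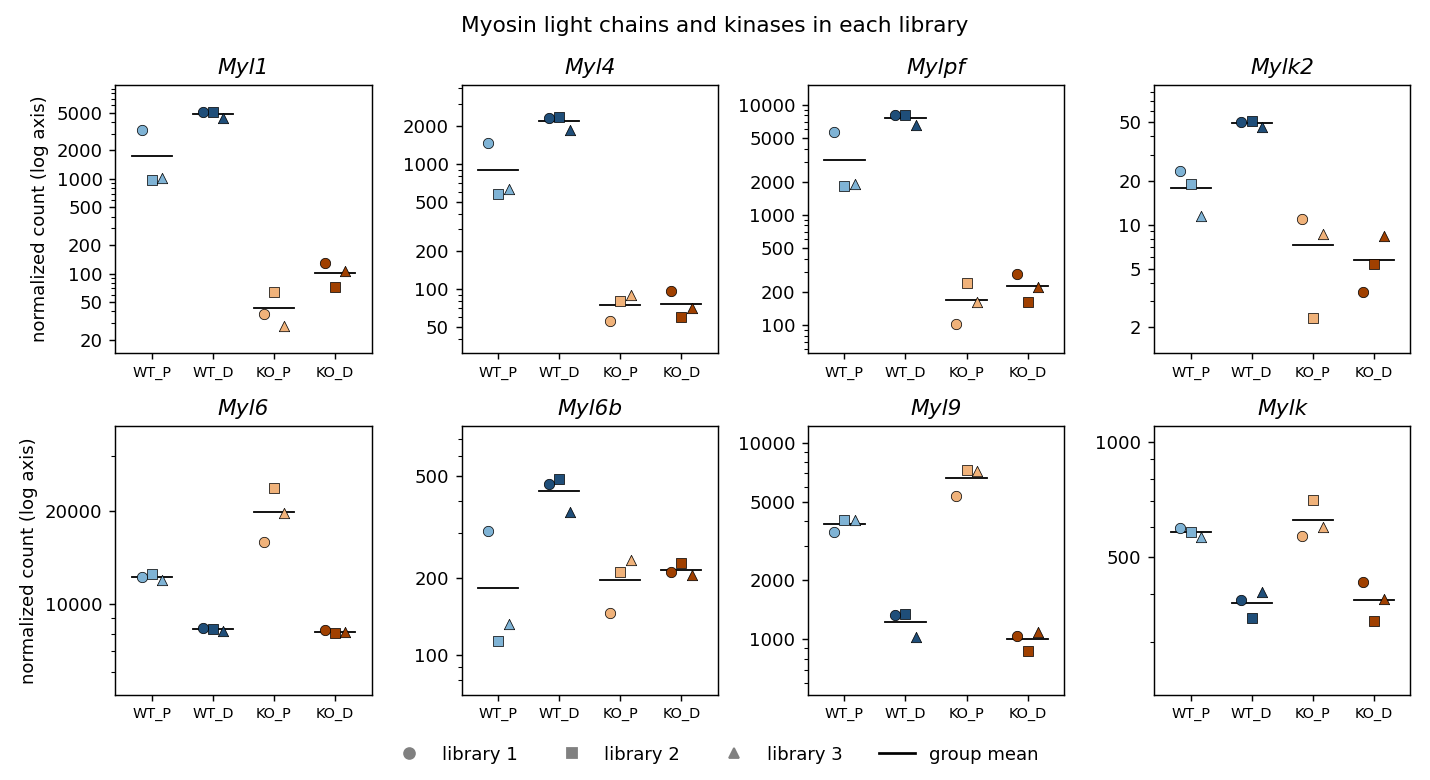
Normalized counts (log axis, scaled separately in each panel) of the 8 tested members in each of the 12 libraries, with symbols for libraries 1 to 3 and a line at the group mean. Myl1, Myl4 and Mylpf lie far lower in KO_P and KO_D than in any WT library, WT_P1 lies near WT_D for these genes and Myl6b, and Myl6 and Myl9 are highest in KO_P.

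The skeletal muscle kinase Mylk2 was the least abundant tested member, and it was also lower in Gne KO cells. It had 23.4, 18.9 and 11.4 normalized counts in WT_P, 49.9, 51.4 and 46.1 in WT_D, 10.9, 2.31 and 8.61 in KO_P and 3.48, 5.40 and 8.36 in KO_D, where the Gne KO libraries rest on 2 to 11 reads each. The groups did not overlap, but in the proliferative state the highest KO_P library lay just under the lowest WT_P library. The difference was −3.08 ± 0.42 (log2, 8.46-fold lower, limma voom adjusted p = 6.67e-05) in the differentiated state. In the proliferative state it was −1.40 ± 0.47 (adjusted p = 0.0182), a call that was lost without WT_P1 (−1.16, adjusted p = 0.0680) or without KO_P library 2 (−0.86, adjusted p = 0.0893).

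The slow and ventricular chains were at the limit of detection in all cells. Myl2 had 6 counts over the 12 libraries, 1 in WT_P, 3 in WT_D (1 in each library), 2 in KO_P and 0 in KO_D. Myl3 had 1 count in all, in KO_P. A count of 0 in a library allows a level of up to 2.60 to 3.47 normalized counts (3 counts, counting error only), so differences of Myl2 and Myl3 between groups were not detectable at this depth.

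The nonmuscle chains went another way. Myl6, the main nonmuscle and smooth muscle essential chain, had 12159, 12421 and 11961 normalized counts in WT_P and 15845, 23674 and 19640 in KO_P, so that every KO_P library lay above every WT_P library. In differentiated cells it had 8341, 8266 and 8161 in WT_D and 8200, 8032 and 8064 in KO_D, and these groups overlapped. The difference was 0.67 ± 0.10 (log2, 1.60-fold higher, limma voom adjusted p = 5.08e-05) in the proliferative state, 0.67 also without WT_P1, and −0.03 with a 95% interval of −0.24 to 0.18 (adjusted p = 0.888) in the differentiated state.

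Myl9, the regulatory chain of nonmuscle and smooth muscle myosin, had 3544, 4072 and 4055 normalized counts in WT_P and 5365, 7303 and 7241 in KO_P. In differentiated cells it had 1328, 1344 and 1025 in WT_D and 1045, 873.4 and 1088 in KO_D. All KO_P libraries lay above all WT_P libraries, and the differentiated groups overlapped. Myl9 was 1.69-fold higher in proliferative Gne KO cells (log2 0.76 ± 0.13, limma voom adjusted p = 0.000101), and without WT_P1 the difference was 0.69. With a trend in GC content and exon length removed the difference was 0.22 and no longer passed (adjusted p = 0.0925), while that of Myl6 stayed past the threshold at 0.28 (adjusted p = 0.00971). In the differentiated state the difference of Myl9 was −0.29 (95% interval −0.57 to −0.02, adjusted p = 0.151).

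The level of Myl9 moved with the summed level of smooth muscle markers, though not with each of them, and their part in it was not tested. The summed level of 8 such markers was 69816 to 78377 in WT_P, 35418 to 43507 in WT_D, 74259 to 112348 in KO_P and 22353 to 24200 in KO_D, and most of it was Acta2, an actin that cultured myoblasts also express. In proliferative Gne KO cells 4 of the 7 tested markers were higher and 2 lower, with or without WT_P1, where 28.2% and 27.2% of all tested genes were in the fit of all libraries. The higher ones were Lmod1 (log2 0.75), Smtn (0.50), Acta2 (0.48) and Actg2 (0.43, group means 3245 in WT_P and 4435 in KO_P). The lower ones, opposite to Myl9, were Cnn1 (−3.35, group means 216.2 and 20.8) and Tagln (−0.59). Myh11 (group means 1.85 to 5.63) and Myocd (0 to 0.311) were at or near 0 in all groups. Of 6 fibroblast markers, 4 were tested, Lum and Thy1 were at or near 0, and the sum was 132739 to 157298 in KO_P, lower than the 199380 to 242205 of WT_P, while in KO_D it was 258907 to 269369 and in WT_D 177984 to 197065. In proliferative Gne KO cells Col1a1 was lower (log2 −1.86, group means 108972 in WT_P and 29727.5 in KO_P) and Pdgfra higher (1.63). Col3a1 (0.04) and Dcn (−0.11) did not pass there. In differentiated ones Dcn (2.03), Pdgfra (0.91) and Col3a1 (0.59) were higher and Col1a1 (−0.37) lower. Endothelial, immune, epithelial and adipocyte marker sums were at most 225.5 in any library. The sum of 6 cardiac markers moved with Myl4, at 2234 to 6585 in WT_P, 5331 to 6598 in WT_D, 128.4 to 322.6 in KO_P and 242.1 to 350.4 in KO_D. Nearly all of it in WT cells was the troponin T gene Tnnt2, which embryonic skeletal muscle also expresses (−4.32 ± 0.45 and −4.68 ± 0.40 in Gne KO cells). Among the other cardiac markers, Nppa and Myl7 had 0 counts in every library and Nppb at most 1.14 normalized counts. Myh6 had group means of 72.5 in WT_P, 22.8 in WT_D, 3.61 in KO_P and 0.940 in KO_D. It differed by −3.87 in proliferative Gne KO cells (−3.06 without WT_P1). Tnni3 had 19.4, 47.7, 17.5 and 56.5 in the same order of groups and did not pass between the genotypes.

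Myl6b, a further essential chain that is found in nonmuscle and in embryonic skeletal muscle, shared features of both sets. It had 305.0, 113.2 and 132.4 normalized counts in WT_P, 464.3, 485.5 and 362.1 in WT_D, 146.2, 210.5 and 235.7 in KO_P and 210.4, 229.1 and 205.2 in KO_D. The proliferative groups overlapped only through WT_P1, and the 3 WT_D libraries lay above all KO_D libraries. The difference was −1.02 ± 0.24 (log2, 2.03-fold lower, limma voom adjusted p = 0.00562) in the differentiated state. In the proliferative state it was 0.16 (95% interval −0.41 to 0.72, adjusted p = 0.668), with a sign that changed between settings, and without WT_P1 it was 0.65 and passed (adjusted p = 0.0240).

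Mylk, which encodes the smooth muscle and nonmuscle kinase and, from a promoter of its own, telokin, showed no difference that passed between the genotypes. Its values were 595.4, 582.8 and 562.5 in WT_P, 568.0, 706.6 and 597.2 in KO_P, 384.7, 346.4 and 405.3 in WT_D and 431.3, 339.4 and 388.2 in KO_D, with overlap between the genotypes in both states. The difference was 0.09 (95% interval −0.11 to 0.30, adjusted p = 0.479, limma voom) in proliferative and 0.03 (−0.19 to 0.26, adjusted p = 0.879) in differentiated cells, and its sign changed between settings (0.11 in proliferative cells without WT_P1). Counts per gene do not separate the kinase from telokin, nor the 2 essential chains that Myl1 encodes from different promoters.

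Counted together, 2 of the 8 tested members were higher and 4 lower in proliferative Gne KO cells, where 28.2% of all tested genes were higher and 27.2% lower. In differentiated cells 0 were higher and 5 lower, against 11.1% and 12.5% of all genes. Without WT_P1 the proliferative counts were 3 higher and 3 lower, and the share of all genes in that fit is not given. The median log2 difference over the 8 was −0.65 in proliferative and −2.05 in differentiated cells, beside −0.02 and −0.01 over all tested genes. When libraries were scaled by library size alone, the all-gene median in proliferative cells moved to −0.21 and the share of higher calls from 50.9% to 38.5% of all calls. Myl6 (0.49) and Myl9 (0.57) still passed as higher under that scaling.

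Differentiation of WT cells moved every tested member past the threshold. In the WT_D group Myl1 was 3.22-fold higher than in WT_P (log2 1.69 ± 0.30, limma voom adjusted p = 0.000483), Mylpf 2.76-fold (1.46 ± 0.30, adjusted p = 0.00156), Myl4 2.66-fold (1.41 ± 0.24), Mylk2 2.75-fold (1.46 ± 0.32) and Myl6b 2.52-fold (1.33 ± 0.26). Myl9 was 3.17-fold lower (−1.66 ± 0.13, adjusted p = 2.59e-07), Mylk 1.54-fold lower (−0.62 ± 0.11) and Myl6 1.48-fold lower (−0.56 ± 0.11). These are 5 members higher and 3 lower, against 16.6% and 15.3% of all tested genes. In none of the 8 did the 2 groups overlap, but the share of all tested genes without overlap was not computed. WT_P1 held 3.28 times the mean of the other WT_P libraries for Myl1, 3.03 times for Mylpf, 2.48 times for Myl6b and 2.43 times for Myl4. For Myl6, Mylk and Myl9 that ratio was 0.997, 1.04 and 0.872. Without WT_P1 the increases were larger, 2.28 for Myl1, 2.01 for Mylpf, 1.86 for Myl4, 1.82 for Myl6b and 1.70 for Mylk2 on the log2 scale, and the decreases were −1.73 for Myl9, −0.60 for Mylk and −0.56 for Myl6.

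In Gne KO cells the same change of medium gave the decreases of the nonmuscle set and no increase that passed. Myl9 fell 6.57-fold (log2 −2.71 ± 0.13, limma voom adjusted p = 2.76e-10), Myl6 2.40-fold (−1.26 ± 0.11, adjusted p = 6.27e-08) and Mylk 1.60-fold (−0.68 ± 0.11, adjusted p = 6.70e-05). The count was 0 higher and 3 lower of 8, against 28.7% and 27.7% of all tested genes. Myl1 differed by 1.31 ± 0.75 (adjusted p = 0.150) although its 3 KO_D libraries lay above its 3 KO_P libraries, and it passed without WT_P1, which enters the shared spread of the fit (adjusted p = 0.000898). Mylpf (0.50 ± 0.52, adjusted p = 0.432), Myl4 (0.04 ± 0.51, adjusted p = 0.952), Myl6b (0.16 ± 0.27, adjusted p = 0.658) and Mylk2 (−0.23 ± 0.54, adjusted p = 0.750) did not pass. The 95% intervals of Mylpf (−0.51 to 1.52) and Myl4 (−0.96 to 1.04) are wide.

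**Figure D2:**
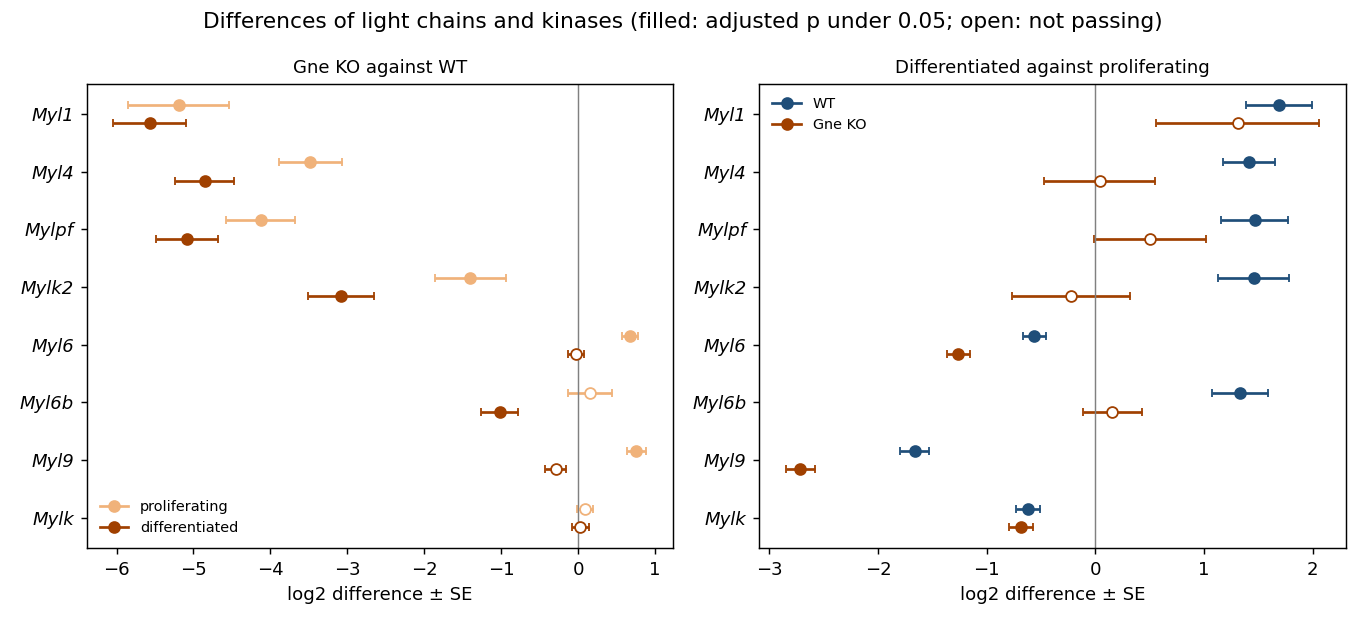
Log2 differences with SE of the 8 tested members, Gne KO against WT in each state (left) and differentiated against proliferative cells in each genotype (right), where filled points passed at an adjusted p under 0.05 and open points did not. Myl1, Myl4, Mylpf and Mylk2 lie left of 0 in both states at the left, and at the right only the WT points lie to the right of 0 and pass.

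Whether the genotype difference itself depended on the state was tested by the interaction term, here the differentiated minus the proliferative difference of Gne KO from WT. It passed as negative for Myl9 (−1.05 ± 0.19, limma voom adjusted p = 0.000409), Myl6 (−0.70 ± 0.15, adjusted p = 0.00147), Myl6b (−1.18 ± 0.38, adjusted p = 0.0196) and Mylk2 (−1.68 ± 0.63, adjusted p = 0.0426). These are 0 members positive and 4 negative, against 19.7% and 22.2% of all tested genes. For Myl4 (−1.37 ± 0.56, adjusted p = 0.0616), Mylpf (−0.96 ± 0.60, adjusted p = 0.217), Myl1 (−0.38 ± 0.81, adjusted p = 0.740) and Mylk (−0.06 ± 0.16, adjusted p = 0.784) it did not pass. Without WT_P1, 7 of the 8 passed, among them Myl1 (−0.96, adjusted p = 0.0223), Myl4 (−1.82) and Mylpf (−1.50), while Myl9 (−0.98) and Myl6 (−0.70) changed little and Mylk stayed near 0 (−0.08). The 19.7% and 22.2% belong to the fit of all libraries, and the share of all genes without WT_P1 is not given here. With the trend in GC content and exon length removed, the term passed only for Myl9 (−0.54, adjusted p = 0.0125) and Myl6 (−0.32, adjusted p = 0.0373). The calls of Mylk2 and Myl6b were lost in turn without several other libraries, with adjusted p up to 0.134 and 0.0679, and those of Myl6 and Myl9 were kept without any single library (adjusted p up to 0.00682 and 0.00243).

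Levels of different members were compared per kilobase of the longest coding transcript of each gene. In WT_D the order was Mylpf (9893 normalized counts per kb), Myl6 (4950), Myl1 (4469), Myl4 (2325), Myl9 (1092), Myl6b (426), Mylk (48.4) and Mylk2 (16.6), with no overlap between neighbours. In WT_P it was Myl6 (7302), Mylpf (4102), Myl9 (3449), Myl1 (1621), Myl4 (940), Myl6b (179), Mylk (74.2) and Mylk2 (6.06), where Myl6, Mylpf and Myl9 overlapped as neighbours, and so did Myl1 and Myl4. In libraries 2 and 3 of WT_P alone, Myl9 (3602) stood before Mylpf (2447), and neither these nor Myl1 (921) and Myl4 (636) overlapped. In KO_P Myl6 (11823) and Myl9 (5883) stood apart from Mylpf (220), Myl6b (192), Mylk (79.7), Myl4 (79.3) and Myl1 (40.1), among which all neighbours but Myl6b and Mylk overlapped. In KO_D Myl6 (4855) and Myl9 (889) led again, followed by Mylpf (294), Myl6b (210), Myl1 (94.6), Myl4 (80.1), Mylk (49.4) and Mylk2 (1.95), with overlap between Mylpf and Myl6b and between Myl1 and Myl4. Per kilobase of all exons Myl9 stood before Mylpf in WT_P and before Myl4 in WT_D.

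The exchange of isoforms was read as shares within a library. Myl1 and Myl4 together made 37.6%, 16.5% and 18.1% of the per-kilobase level of the essential chains Myl1, Myl4, Myl6 and Myl6b in the WT_P libraries, and 56.7%, 56.9% and 53.7% in WT_D. In Gne KO cells they made 0.959%, 0.993% and 0.994% in KO_P and 4.14%, 2.51% and 3.32% in KO_D, so that no Gne KO library reached the lowest WT_P library. Of the regulatory chains Mylpf, Myl9, Myl12a and Myl12b, Mylpf made 55.5%, 27.3% and 28.1% in WT_P, 76.0%, 75.7% and 75.9% in WT_D, 1.76% to 3.25% in KO_P and 11.9%, 7.70% and 9.51% in KO_D. Both shares were higher in every KO_D than in every KO_P library. With exon lengths in place of transcript lengths the group means of the first share were 19.8%, 49.7%, 0.582% and 2.40% in the order WT_P, WT_D, KO_P and KO_D. Without WT_P1 the WT_P means were 17.3% for the first and 27.7% for the second share, with transcript lengths. A share depends on all of its chains, and which of them moved it was not tested.

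**Figure D3:**
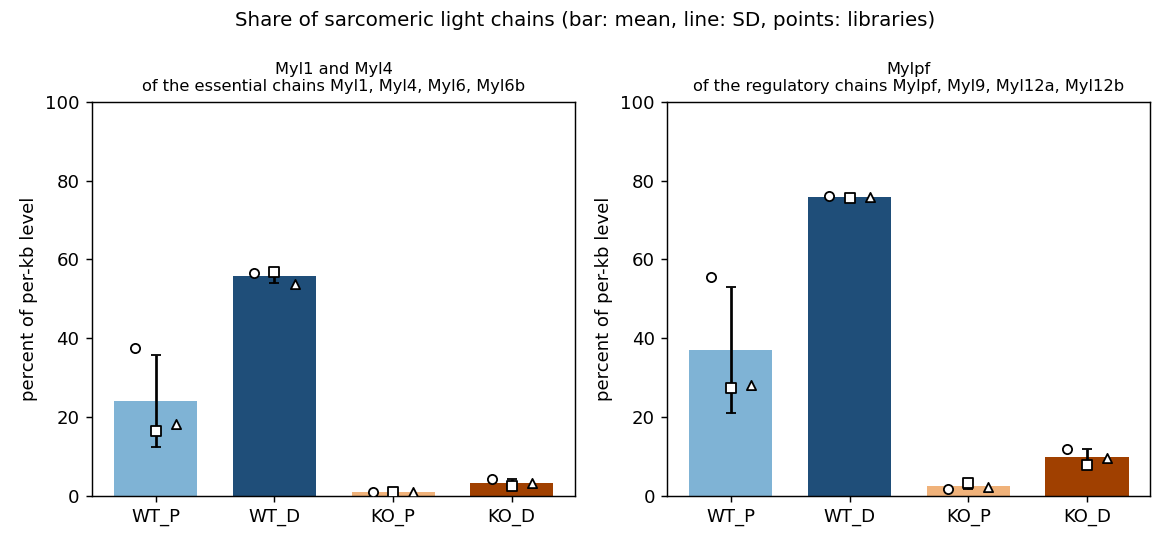
Share of sarcomeric chains in the summed per-kilobase level of essential chains (left) and regulatory chains (right), in percent, with bars for group means, lines for the SD (n = 3) and points for libraries. The means are 24.1%, 55.8%, 0.982% and 3.32% at the left and 37.0%, 75.9%, 2.37% and 9.72% at the right, and WT_P1 is the high point of its group.

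Among the heavy chains that carry these light chains, most sarcomeric ones were lower in Gne KO cells, while the nonmuscle ones did not move together. Of 9 tested sarcomeric heavy chain genes, 8 were lower in proliferative and 9 in differentiated Gne KO cells, with a median log2 difference of −3.87 and −4.71, where 27.2% and 12.5% of all tested genes were lower. Without WT_P1 the proliferative count was 8 lower and 1 higher (Myh13), with a median of −3.06. The embryonic heavy chain Myh3 had 9482, 2329 and 2258 normalized counts in WT_P and 51.4, 138.8 and 47.3 in KO_P (−5.75 ± 0.71, limma voom adjusted p = 5.75e-06), and WT_P1 was again the high library (−5.06 without it). In the differentiated state the perinatal Myh8 (−7.86), the fast Myh4 (−7.62), Myh3 (−6.72) and the slow Myh7 (−4.71) were lower. In WT cells 6 of the 9 rose with differentiation (16.6% of all tested genes), among them Myh4 (4.84 ± 0.47), and 7 did without WT_P1 (Myh4 5.51). In Gne KO cells 0 passed in either direction. Without WT_P1, which enters the shared spread of the fit, 1 was higher and 1 lower between the Gne KO states. The shares of all genes without WT_P1 are not given for these counts. The nonmuscle heavy chain Myh9, which pairs with Myl6 and Myl9, was by far the most abundant at group means of 87275 to 136864, and was 0.33 ± 0.09 higher in proliferative Gne KO cells (adjusted p = 0.00679, and 0.23 with adjusted p = 0.0410 without WT_P1) and 0.00 ± 0.09 apart in differentiated ones. Myh10, named here after its values were seen, was the 1 of 3 nonmuscle and smooth muscle heavy chains that was lower, with means of 67.5 in WT_P and 1.46 in KO_P. The difference was −5.16 (limma voom adjusted p = 1.90e-06), and −5.07 without WT_P1. Its means were 23.7 in WT_D and 0.619 in KO_D.

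Other proteins of the thick filament fell with the sarcomeric chains, 8 of 9 tested being lower in each state, against 27.2% and 12.5% of all tested genes (7 of 9 in proliferative cells without WT_P1, where Mybpc1 lost its call). The giant scaffold Ttn had 25587, 11050 and 10616 normalized counts in WT_P and 172.9, 343.5 and 95.8 in KO_P (−6.35 ± 0.42, limma voom adjusted p = 1.87e-08), and it rose with differentiation in both genotypes (1.93 ± 0.28 in WT, 2.46 ± 0.44 in Gne KO cells). Without WT_P1 these were −5.94 between the genotypes and 2.35 between the WT states. The M-band proteins Myom1 (1.79) and Myom2 (1.36) also rose in differentiating Gne KO cells, where 4 of 9 did against 28.7% of all tested genes, while Mybph, encoding a myosin binding protein, had 1.21 ± 0.71 (adjusted p = 0.162). In the fit without WT_P1, for which the share of all genes is not given, 6 of the 9 rose and 1 fell between the Gne KO states. Unc45b, encoding a chaperone that folds the myosin motor, differed by −5.08 ± 0.81 in proliferative Gne KO cells (−4.47 without WT_P1).

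**Figure D4:**
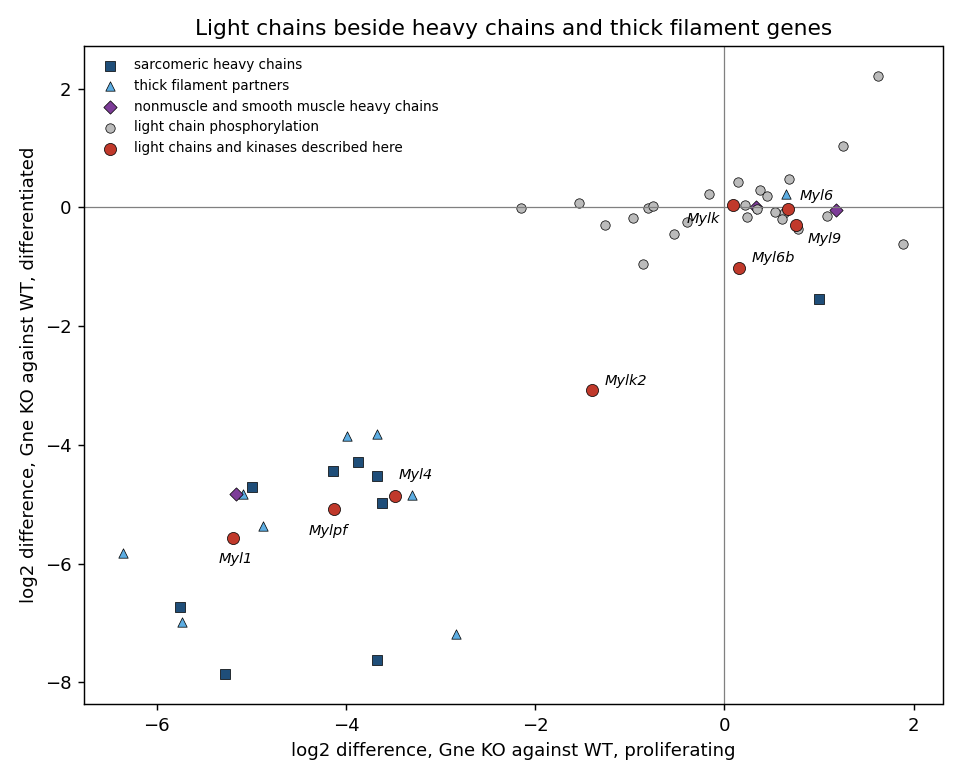
Log2 difference of Gne KO from WT in proliferative (horizontal) and differentiated cells (vertical) for the 8 tested members (red, named) and 4 lists of partner genes. Myl1, Myl4 and Mylpf lie among the sarcomeric heavy chains and thick filament genes between −3.48 and −5.57, Mylk2 lies between the 2 clouds, and the other members lie near the genes of light chain phosphorylation.

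Of the other light chain and kinase genes, Mylk4, a kinase of striated muscle, had 996.6, 219.8 and 206.5 normalized counts in WT_P, 267.7, 287.6 and 267.8 in WT_D, 13.8, 25.4 and 17.2 in KO_P and 6.09, 2.16 and 11.1 in KO_D. Its level in Gne KO cells was lower in either state (−4.34 ± 0.86, limma voom adjusted p = 0.000452, and −5.51 ± 1.20, adjusted p = 0.00314). Between the WT states it differed by −0.45 ± 0.42 (adjusted p = 0.456), but without WT_P1 every WT_D library lay above WT_P and the sign changed (0.36 ± 0.16, adjusted p = 0.104). The genotype difference in proliferative cells without WT_P1 was −3.53. The nonmuscle regulatory chain Myl12a was between 3226 and 6522 in all libraries and did not pass between genotypes (0.09 ± 0.09, adjusted p = 0.447, and −0.18 ± 0.10, adjusted p = 0.202). Its close paralog Myl12b was 0.49 ± 0.16 higher in proliferative Gne KO cells (adjusted p = 0.0168), a call that was lost without WT_P1 (0.44, adjusted p = 0.0566), and how the counting split reads between near-identical paralogs is uncertain. The atrial regulatory chain Myl7 had 0 counts in every library.

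Of 25 genes that act on light chain phosphorylation, 14 were higher and 8 lower in proliferative Gne KO cells, and 5 were higher and 2 lower in differentiated ones, with medians of 0.24 and −0.02. Of all tested genes 28.2% were higher and 27.2% lower in the first and 11.1% and 12.5% in the second comparison, so the lower calls were near or under the share of all genes. Without WT_P1 the counts were 14 and 7 in proliferative cells, and 5 and 3 in differentiated ones. Rock1 and Rock2, kinases that phosphorylate Myl9 and the phosphatase that reverses it, had the most negative values. Rock1 had 3437, 3604 and 3802 normalized counts in WT_P and 1096, 760 and 634 in KO_P (−2.15 ± 0.14, limma voom adjusted p = 1.40e-08), and Rock2 differed by −1.53 ± 0.12. Without WT_P1 these were −2.19 and −1.58. Ppp1cb, the catalytic subunit of the phosphatase, differed by −1.26 ± 0.11. In the opposite direction, Cdc42bpg, which encodes a protein kinase, was 1.25 ± 0.10 higher in proliferative and 1.04 ± 0.09 higher in differentiated Gne KO cells. In the differentiated state Rock1 was at 3146 to 3237 in KO_D and 3008 to 3549 in WT_D, and its interaction term was 2.14 ± 0.19 (adjusted p = 1.13e-06). The calmodulin gene Calm3, whose product activates Mylk and Mylk2, had an interaction term of −1.23 ± 0.19 and was highest in KO_P, as Myl6 and Myl9 were. Values with the trend in GC content and exon length removed were taken for members only, not for these or other listed genes.

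Among 8 myogenic factors, which bind the E-box or the MEF2 site, 4 were lower in proliferative and 5 in differentiated Gne KO cells, against 27.2% and 12.5% of all tested genes. Without WT_P1 the counts were 5 lower and 1 higher in proliferative and 6 lower in differentiated cells. Myog was −3.51 ± 0.42 and −4.73 ± 0.49 (limma voom adjusted p = 4.74e-06 and 4.39e-06), and −2.89 in proliferative cells without WT_P1. Myod1 had 3640, 1571 and 1603 normalized counts in WT_P and 1695, 2372 and 2321 in KO_P, and the difference was 0.00 (adjusted p = 0.992). Its 3 KO_P libraries lay above WT_P libraries 2 and 3 and below WT_P1, and without WT_P1 Myod1 was 0.40 ± 0.13 higher in proliferative Gne KO cells (adjusted p = 0.0155). In the differentiated state it differed by −2.63 ± 0.30, with an interaction term of −2.62 ± 0.38 (adjusted p = 7.29e-05), or −3.03 without WT_P1. There were 3 tested genes of serum response factor, which binds the CArG box, and of its cofactors. Of these, Srf (0.33 ± 0.11) and Mkl1 (0.75 ± 0.09) were higher in proliferative Gne KO cells, as were 28.2% of all tested genes. Srf lost its call without WT_P1 (0.21, limma voom adjusted p = 0.121). All 3 fell with differentiation of Gne KO cells (Srf −1.18 ± 0.12), and 2 fell in WT cells (Srf −0.54 ± 0.11), against 27.7% and 15.3% of all tested genes. Whether these factors set the levels of light chains was not tested.

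The genes most like each member over the 12 libraries were found by Pearson correlation on log2 CPM among 10677 genes, as a description of points that fall into 4 groups. Nearest to Myl1 were Tnnt3, encoding fast troponin T (r = 0.998), Unc45b (0.997) and Acta1, encoding skeletal actin (0.997). Nearest to Myl4 was the fusion protein gene Mymk (0.998), and nearest to Mylpf were Mymk (0.998) and the muscle creatine kinase gene Ckm (0.998). Myl9 was nearest to the replication licensing gene Cdc6 (0.994), to Relt (0.993) and to Uhrf1 (0.993), a gene of maintenance methylation of DNA, and Myl6 to Ssrp1 (0.996), a histone chaperone gene. Likeness was weaker for Mylk (Hnrnpd, 0.963), Myl6b (Gfm2, 0.952) and Mylk2 (Rap1gap2, 0.945). Within the members, r was 0.995 between Myl4 and Mylpf, 0.992 between Myl1 and Mylpf, 0.954 between Myl6 and Myl9 and 0.937 between Myl9 and Mylk.

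Copies of the members elsewhere in the genome carried few reads. The processed pseudogene Mylf-ps matched 421 bases of Myl1 transcripts at 99.3% identity and had 0 to 2.70% as many counts as Myl1, with overlapping ranges in the 4 groups. The 5 processed pseudogenes of Myl6 together had 0.0115% to 0.107% as many counts as Myl6. Adding their reads to the parent gene changed no call of a member. Mylk shares 548 and 224 exonic bases of 11263 with 2 antisense genes, E130310I04Rik and Gm21691, Myl3 shares 95 bases with Pth1r and Myl2 shares 60 with Ccdc63. The strand setting of the counter is not stated in the sources used, so reads in those stretches are uncertain.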

How the data were processed

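The authors sequenced 12 stranded mRNA libraries of Sol8 cells as single-end reads, and the processing notes of the submitters list GRCm38 as the build, TopHat2 2.1.1 and HTSeq 0.6.1, beside cutadapt 1.18 and DESeq2 1.22.1. Per the file headers, the authors deposited 1 table that holds a raw count for each gene in each library, 12 columns of normalized counts (not used) and their own fold changes and adjusted p-values of 4 comparisons (not used). A question mark stands in place of the raw counts of 6252 of the 54838 genes listed, so the deposited columns were classed as another unit than plain counts. For this reason limma's voom test (limma 3.58.1, R 4.3.3) took the place of a count model.

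Tests used the 20415 genes whose counts summed to 10 or more, with library sizes corrected by TMM factors (written in base R, trims of 30% of log ratios and 5% of mean levels). A single fit of the 4 groups gave the contrasts between genotypes within a state, between states within a genotype, and the interaction. Benjamini-Hochberg adjustment covered all of these genes, and a gene passed at an adjusted p under 0.05. Over the 10684 genes whose mean normalized count reached 100, the median SE was 0.108 for proliferative and 0.107 for differentiated cells. Intervals of 95% were taken from the SE.

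Exon and transcript lengths and overlaps were read from GENCODE M21, and promoters from RefSeq. A copy was a match of at least 75 bases at 95% identity or more. Named were all 10 members, of each gene list up to 4 genes per contrast that passed with the largest difference at a mean of at least 100 and the most abundant that did not pass, of which the text gives a part, and the 3 genes most like a member. The lists hold sarcomeric heavy chains, nonmuscle and smooth muscle heavy chains, thick filament partners, other light chain and kinase genes, light chain phosphorylation, myogenic factors, serum response factor with cofactors, and cell type markers. The members and lists were chosen with earlier results of these data known. Alternatives were other scalings, filters and fits, the study's effect filter (mean of at least 5 and an absolute log2 value above 7.5 over the root of the mean, plus 0.9), a replicate block, a trend in GC content and exon length removed, and each library left out. Reads of pseudogenes were added to their parent, and lists and shares were computed without WT_P1, as alternatives chosen after seeing the data.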

Additional observations from a re-analysis of the deposited data

Results flagged for a closer look

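In 4 of the 8 tested members the interaction term (limma voom) passed, always as negative, against 22.2% negative and 19.7% positive over all tested genes. In these 4 the fitted difference of Gne KO from WT cells was not the same in the 2 states in the main fit. The call of Mylk2 stayed the same in 8 of 23 alternative settings and that of Myl6b in 15, against 22 for Myl6 and 23 for Myl9. For Myl9 it went from 0.76 in proliferative to −0.29 in differentiated cells, a change of −1.05 (adjusted p = 0.000409). For Myl6 it went from 0.67 to −0.03, a change of −0.70 (adjusted p = 0.00147). For Myl6b it went from 0.16 to −1.02, a change of −1.18 (adjusted p = 0.0196). For Mylk2 it went from −1.40 to −3.08, a change of −1.68 (adjusted p = 0.0426), on few reads. With the trend in GC content and exon length removed, the proliferative differences were 0.22 for Myl9, which no longer passed, and 0.28 for Myl6, and the interaction passed for 2 members, Myl9 (−0.54) and Myl6 (−0.32).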

How the results depend on the processing

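Over all settings tried, Myl1, Myl4 and Mylpf kept their direction and stayed past the threshold in Gne KO against WT cells in both states and in differentiated against proliferative WT cells, and so did Myl9 in both state comparisons and Myl6 between the states of Gne KO cells. The effect filter of the study left 3 members passing and 0 higher in proliferative Gne KO cells, 4 passing (3 higher and 1 lower) between the WT states, and 1 with a negative interaction. With the trend in GC content and exon length removed, alone or with the replicate block, 1 member was higher in proliferative Gne KO cells and 2 had an interaction that passed, as with scaling by library size alone (2). Between the states of Gne KO cells, Myl1 was the 1 higher member with limma-trend (1.24), with the replicate block (1.33, adjusted p = 0.0385) and with only the 6 libraries compared, and with the block and the trend removed 5 passed, of which 2 were higher. When 1 library was left out, the interaction passed for 2 to 7 members, and 0 to 1 were higher between the Gne KO states. The shares of all genes in those fits are not given for these comparisons. The cause of these changes was not tested.

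Replicate numbers were not taken as pairs in the main fit. Correlations of deviations were −0.254 to 0.110 between libraries of the same number and −0.240 to 0.209 between those of unlike numbers. With 3 libraries per group these values do not decide whether the samples were paired. Besides the calls named, the replicate block changed only that of the Myl4 interaction (−1.32, adjusted p = 0.0246). Signs changed only for values that did not pass. In proliferative Gne KO against WT cells these were Myl6b (−0.0111 with library size, −0.35 with the trend removed, −0.38 with block and trend, −0.12 to 0.65 with 1 library left out) and Mylk (−0.0918 with library size, −0.0191 with a filter of 1 CPM in 3 libraries, −0.0475 with the trend removed, −0.0474 with block and trend, −0.0369 to 0.158 with 1 library left out). In differentiated cells they were Myl6 (0.00383 with library size) and Mylk (−0.0117 with the trend removed, −0.0127 with block and trend, −0.0528 to 0.107 with 1 library left out). Between the Gne KO states they were Mylk2 (0.0534 with library size, 0.0393 with sample quality weights, 0.148 with the trend removed, 0.0728 with block and trend, −0.75 to 0.17 with 1 library left out), Myl4 (−0.0515 with quality weights, −0.17 to 0.19 with 1 library left out) and Myl6b (−0.0591 to 0.302 with 1 library left out). The interaction of Mylk was 0.16 with library size, 0.0520 with the 1 CPM filter, 0.0358 with the trend removed, 0.0348 with block and trend and −0.146 to 0.0823 with 1 library left out.

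Scaling by library size alone moved the median of all genes to 0.34 between the Gne KO states and to 0.20 in the interaction, where 66.4% and 64.7% of calls were then higher in place of 50.9% and 47.0%. Of all genes, the effect filter of the study called 485 higher and 1404 lower in proliferative Gne KO cells (5753 and 5550 without it), 106 and 506 in differentiated cells (2273 and 2555), 378 and 174 between the WT states (3381 and 3115), 1397 and 989 between the Gne KO states (5863 and 5648) and 1130 and 612 in the interaction (4012 and 4533). Sample quality weights gave 4520 and 4714 in differentiated cells and 5082 and 5013 between the WT states, a fit of only the 6 differentiated libraries gave 4245 and 4253, leaving out library 1 of differentiated WT gave 1457 higher, and library size alone gave 2818 lower in the interaction. Depth limits Mylk2, Myl2 and Myl3.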

Other observations

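Library 1 of the proliferative WT group did not stand between its group and the differentiated WT group in the same way for all genes of the contractile program. For Myl1 and Mylpf the mean of the 3 differentiated WT libraries was 1.48 and 1.33 times the level in that library. Myog, with 8899 normalized counts there, lay above all differentiated WT libraries (3705 to 4587), and so did the striated muscle kinase gene Mylk4, with 997 against 268 to 288. Its nonmuscle genes Myl6, Mylk and Myl9 stayed at the level of the other proliferative WT libraries, with ratios of 0.997, 1.04 and 0.872 to their mean. No label sets this library apart, and the cause was not tested.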
